A study of Rattus norvegicus with 6 samples.

Results

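The genes described here encode 10 enzymes that carry out mitochondrial beta-oxidation of fatty acids: Acadvl, Acadl, Acadm, Acads, Hadha, Hadhb, Echs1, Hadh, Acaa2 and Eci1. They were taken from the deposited expression table by gene symbol, and each symbol stood on 1 of the 32930 gene rows. All 10 were among the 18455 genes that passed the expression filter. Liver RNA came from 6 animals on a high-fat diet, 3 given the vehicle 0.5% sodium carboxymethyl cellulose (HFD group) and 3 given HTG, the Huazhuo Tiaozhi granule, a herbal preparation (HTG group), for 12 weeks. Every animal was on the high-fat diet, so no group stands for a normal diet, and the labels give no dose. The study's methods describe an HTG dose by gavage for its rats, begun some weeks into the high-fat diet and given while the diet went on. That treatment was shorter than 12 weeks, and the methods do not say whether it applies to the animals sequenced. The titles and the design text write HTG, whereas the treatment label of the HTG samples writes HCG. The labels name the animals as Rattus norvegicus, while the study's methods name C57BL/6 J mice for its RNA sequencing. The gene rows carry mouse Ensembl identifiers and were read as mouse genes.

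Beta-oxidation shortens an acyl-CoA chain by repeated rounds of the same reactions in the mitochondrial matrix and at the inner membrane. In each round an acyl-CoA dehydrogenase introduces a double bond and passes electrons to the flavoprotein ETF, a hydratase adds water, a dehydrogenase makes NADH, and a thiolase releases acetyl-CoA. In the liver the acetyl-CoA feeds ketone body synthesis and the citric acid cycle, and many of the genes are known targets of the nuclear receptor PPARα (encoded by Ppara).

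All 10 enzymes had lower fitted values with HTG than in the HFD group, where 48.4% of all genes tested had lower fitted values. The median log2 fold change (HTG minus HFD) of the 10 was -0.57, with a range from -1.19 for Hadhb to -0.13 for Eci1, against a median of 0.03 over all genes tested. By edgeR's quasi-likelihood test at an unadjusted p under 0.05, 5 of the 10 were lower (Hadha, Hadhb, Hadh, Acads and Echs1), against a background of 12.4% of all genes, and 0 were higher, against 12.3%, with DESeq2 likewise placing 0 there. After Benjamini-Hochberg adjustment over all genes tested, 0 of the 10 were under 0.05 by the same edgeR test, a threshold that 2 genes (0.0108%) passed in the whole table. DESeq2 put 3 of them under it (Hadha, Hadhb and Hadh), where 7.55% of the genes it adjusted were under it and lower in the HTG group. An adjusted edgeR p under 0.1 was reached by 2 of the 10, Hadha and Hadh, against 5.43% of all genes in that direction. Without HTG library 1, 8 of the 10 were lower at an unadjusted edgeR p under 0.05, against 14.8% of all genes, and 3 at an adjusted p under 0.05, against 2.17%, and without HTG library 2 or HTG library 3 the first number was 2. Without HFD library 1 or HFD library 2 it was 3. The share over all genes was counted only without HTG library 1, so these lower numbers have no background beside them.

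The start regions of 4 of the 5 members with an unadjusted p under 0.05 are shown because the comparison turns on these genes, and the region of the other, Hadhb, is not printed because it overlaps that of Hadha. They are the 250 bases before the transcription start in RefSeq's GRCr8 assembly of the rat, the species the labels name, and not sequences of the mouse rows that were counted. Of the 10 members, 8 matched a RefSeq start region by symbol, Acadl and Acaa2 being the others. Capitals mark matches on either strand to 4 short motifs. The GC box is GGGCGG and is a site of Sp-family factors. The CCAAT box is named for its letters. The half-site of nuclear receptors such as PPARα is AGGTCA. The TATA box was searched as TATAAA. In Echs1 a GC box and a half-site follow each other without a gap. Hadha and Hadhb start on opposite strands with 300 bases between their starts, and most of the stretch printed for Hadha also lies upstream of Hadhb. The sequences are at chr6:31907551-31907800 (plus strand) for Hadha, chr2:222504447-222504696 (minus strand) for Hadh, chr12:47154083-47154332 (plus strand) for Acads and chr1:204333507-204333756 (minus strand) for Echs1.
Hadha: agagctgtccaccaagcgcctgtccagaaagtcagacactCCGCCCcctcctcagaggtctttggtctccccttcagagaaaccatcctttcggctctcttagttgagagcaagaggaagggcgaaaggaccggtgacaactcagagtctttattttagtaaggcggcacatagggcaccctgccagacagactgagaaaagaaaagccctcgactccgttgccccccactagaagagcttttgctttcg
Hadh: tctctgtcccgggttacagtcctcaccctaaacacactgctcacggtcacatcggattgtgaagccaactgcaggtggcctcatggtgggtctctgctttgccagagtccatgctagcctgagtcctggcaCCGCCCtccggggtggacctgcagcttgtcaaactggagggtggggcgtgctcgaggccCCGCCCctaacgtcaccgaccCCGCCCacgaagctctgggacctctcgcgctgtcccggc
Acads: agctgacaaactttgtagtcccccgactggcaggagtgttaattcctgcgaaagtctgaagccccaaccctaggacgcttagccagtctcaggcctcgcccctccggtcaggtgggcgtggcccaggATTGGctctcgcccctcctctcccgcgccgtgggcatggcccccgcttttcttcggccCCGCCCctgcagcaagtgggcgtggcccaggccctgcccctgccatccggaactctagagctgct
Echs1: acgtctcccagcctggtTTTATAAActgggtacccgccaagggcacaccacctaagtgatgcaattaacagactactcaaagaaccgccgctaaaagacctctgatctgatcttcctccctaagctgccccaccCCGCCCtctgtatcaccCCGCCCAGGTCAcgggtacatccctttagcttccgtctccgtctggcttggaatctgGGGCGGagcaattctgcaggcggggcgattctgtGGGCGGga

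Over windows from 250 bases before to 50 bases after the start, a GC box was found in 7 of the 8 matched members (Acadvl lacked it) and in 33.1% of all 33469 rat start regions. The windows of Hadha and Hadhb overlap, and the only GC box of Hadha is also among those of Hadhb, so these members are not separate in the count. In Acadm every GC box lay from the start onward. A nuclear receptor half-site was found in 4 of the 8 (Acadvl, Hadhb, Echs1 and Eci1, in Hadhb downstream of the start) and in 16.2% of all. The extended half-site TCAAGGTCA, which contains the half-site, was in 0 of the 8 and in 0.433% of all. A CCAAT box was in 2 of the 8 (Acads and Hadha, in Hadha downstream of the start) and in 37.5% of all, and a TATA box in 1 (Echs1, where matches on both strands overlap) and in 14.2% of all. In the 250 bases before the start the median GC content was 60.0% in the 8 members and 51.2% over all start regions. A match of letters is a description of these windows only.

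The libraries held between 50648778 and 90563477 estimated counts. Low values moved in steps of about 4, and the depth was read as between 12662194 and 22640869 fragments, and the limit of an empty gene as 3 fragments, or between 0.123 and 0.256 CPM (each library's counts scaled to a common size by its TMM-adjusted total), which covers counting error only. Every member was far above this limit in every library, the lowest value being 37.0 CPM for Hadhb. Hepatocyte markers were abundant in all libraries, with Alb, the albumin gene, at 66149 ± 8325 CPM in HFD livers and 54379 ± 848 CPM in HTG livers (SD, n = 3 each). The 7 hepatocyte markers tested summed to between 81736 and 99591 CPM in HFD libraries and between 70442 and 79019 CPM in HTG libraries. Of these, 2, Apob and Cps1, were lower at an unadjusted edgeR p under 0.05, against 12.4% of all genes. In bulk liver, fewer cells of a type and less RNA per cell cannot be told apart.

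Markers of other cell types were far less abundant. Kupffer cell and macrophage markers summed to between 284 and 620 CPM in the HFD group and between 270 and 459 CPM in the HTG group, with 1 of 6 lower at an unadjusted edgeR p under 0.05. Summed levels were 52.2 to 65.0 CPM and 39.6 to 81.3 CPM for other leukocytes (0 of 5 tested under 0.05), 45.0 to 103 CPM and 76.8 to 119 CPM for endothelium (0 of 5), and 132 to 205 CPM and 128 to 172 CPM for stellate cells and fibroblasts (1 of 6, higher). They were 85.3 to 106 CPM and 59.5 to 131 CPM for cholangiocytes (1 of 5 lower and 1 higher) and 234 to 422 CPM and 258 to 484 CPM for red cells (1 of 5, lower). Of the adipocyte markers, Adipoq was at 0 in every library, and the list summed to between 1.44 and 14.6 CPM in the HFD group and between 1.65 and 2.26 CPM in the HTG group, the highest library being HFD library 2. Over all genes tested, 12.4% were lower and 12.3% higher at the same unadjusted edgeR threshold. The part of these markers in the members' values was not tested. The mitochondrially encoded mRNAs, which are made in the organelle itself, took 6.31% of all counts in HFD library 1, 4.82% in library 2 and 5.18% in library 3, against 9.12%, 14.9% and 13.0% in the same order in the HTG group.

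**Figure D1:**
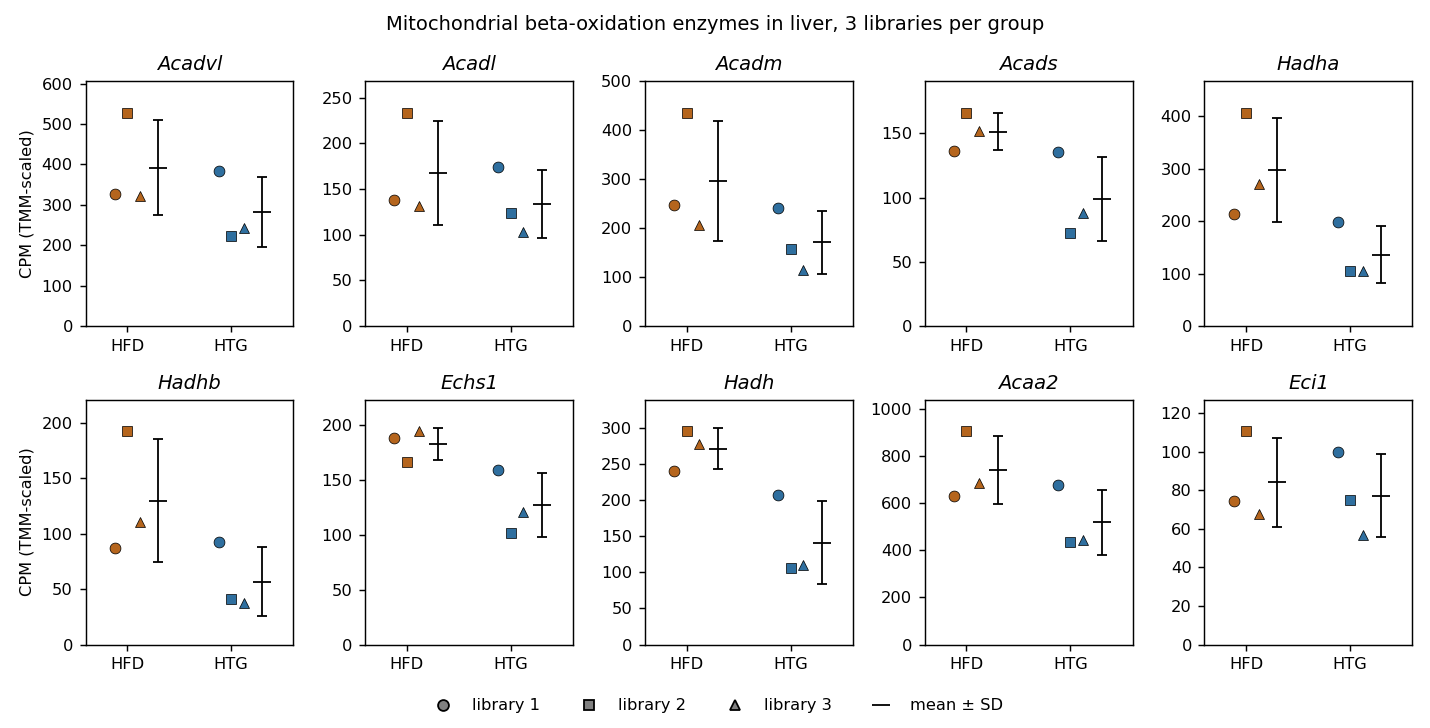
Level of each enzyme in CPM (vertical axes, each starting at 0) in the 3 HFD and 3 HTG libraries, with circles, squares and triangles for libraries 1, 2 and 3 and a bar for the mean ± SD. HFD library 2 is the highest in 9 of the 10 panels, and HTG library 1 is the highest of its group in all 10.

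Acadvl (ENSMUSG00000018574, chr11:69901009-69906237, minus strand) encodes the very-long-chain acyl-CoA dehydrogenase of the inner membrane, which takes the longest chains first. Coordinates here and below are as the table lists them, with no build named there. Its levels were 326, 527 and 322 CPM in HFD libraries 1, 2 and 3 and 383, 222 and 243 CPM in HTG libraries 1, 2 and 3. HTG library 1 lay above HFD libraries 1 and 3, so the groups overlapped. The means were 392 ± 117 CPM and 283 ± 87.4 CPM (SD, n = 3 each), and the log2 fold change was -0.47 (standard error 0.30, edgeR quasi-likelihood adjusted p = 0.365). It was -0.79 without HTG library 1, with an unadjusted p of 0.0238 from the same edgeR test, and -0.20 without HFD library 2. Acadvl overlaps Dvl2 on the opposite strand over 2119 bases, and whether the counting used strand is not given in the sources used here.

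Acadl (ENSMUSG00000026003, chr1:66869998-66902436, minus strand) encodes the long-chain acyl-CoA dehydrogenase. Its levels were 137, 233 and 132 CPM in the HFD libraries and 174, 124 and 103 CPM in the HTG libraries, in the order 1, 2 and 3 used throughout. HTG library 1 was again above HFD libraries 1 and 3. The log2 fold change of -0.33 (standard error 0.29, edgeR quasi-likelihood adjusted p = 0.524) was close to its standard error in size. It was -0.01 without HFD library 2, -0.16 without HTG library 3 and -0.60 without HTG library 1.

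Acadm (ENSMUSG00000062908, chr3:153627994-153650269, minus strand) encodes the medium-chain acyl-CoA dehydrogenase, the enzyme missing in the commonest inherited defect of the pathway. It stood at 246.8, 435 and 206 CPM in the HFD libraries and at 241, 157 and 114 CPM in the HTG libraries. HFD library 2 stood apart at the top, and HTG library 1 lay between HFD libraries 1 and 3. The means were 296 ± 122 CPM and 171 ± 65.0 CPM (SD, n = 3 each), with a log2 fold change of -0.79 (standard error 0.36) and an edgeR quasi-likelihood p of 0.0577 unadjusted and 0.219 adjusted. DESeq2 put its unadjusted p under 0.05, as did leaving out HFD library 3 or HTG library 1, and without HFD library 2 the log2 fold change was -0.41.

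Acads (ENSMUSG00000029545, chr5:115248358-115257405, minus strand) encodes the short-chain acyl-CoA dehydrogenase. The HFD libraries had 137, 166 and 152 CPM, and the HTG libraries had 136, 72.8 and 88.1 CPM. The groups did not overlap, but HTG library 1 was almost level with HFD library 1, while HTG libraries 2 and 3 were far below every HFD library. The means were 151 ± 14.7 CPM and 98.9 ± 32.8 CPM (SD, n = 3 each). The log2 fold change was -0.61 (standard error 0.25), and the p from edgeR's quasi-likelihood fit was 0.0395 unadjusted and 0.179 adjusted. Leaving out any 1 library other than HTG library 1 put the unadjusted p above 0.05, without HTG library 1 the log2 fold change was -0.96, and a block for replicate number gave 0.0522 (edgeR's quasi-likelihood fit).

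Hadha and Hadhb encode the alpha and beta subunits of the mitochondrial trifunctional protein, which carries out the hydratase, dehydrogenase and thiolase steps on long chains. They had the largest fold changes of the 10. Both lie head to head on chromosome 5, Hadha at chr5:30323302-30360160 (ENSMUSG00000025745, minus strand) and Hadhb at chr5:30360246-30389591 (ENSMUSG00000059447, plus strand), with 85 bases between the gene ends in the table.

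Hadha stood at 214, 407 and 272 CPM in the HFD libraries and at 198, 106 and 104 CPM in the HTG libraries. Every HFD library was above every HTG library, HTG library 1 being nearest to the HFD group. The means were 297 ± 98.8 CPM and 136 ± 53.8 CPM (SD, n = 3 each), a fitted ratio of 0.458 of HTG to HFD. The log2 fold change was -1.13 (standard error 0.34), and the p from edgeR's quasi-likelihood fit was 0.00962 unadjusted and 0.0962 adjusted. The unadjusted p stayed under 0.05 in all 17 alternative settings, with log2 fold changes between -1.54 and -0.84.

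Hadhb stood at 86.9, 192 and 110.3 CPM in the HFD libraries and at 92.3, 41.0 and 37.0 CPM in the HTG libraries. HTG library 1 was just above HFD library 1, and HTG libraries 2 and 3 were at less than any HFD library. In FPKM, which divides by length and by the library's own total without TMM scaling, the HTG libraries (13.05, 6.28 and 4.88) were all below the HFD libraries (13.2, 26.3 and 16.6). The means were 129.8 ± 55.3 CPM and 56.8 ± 30.8 CPM (SD, n = 3 each), a fitted ratio of 0.437. The log2 fold change was -1.19 (standard error 0.42), with an edgeR quasi-likelihood p of 0.0202 unadjusted and 0.129 adjusted. The unadjusted p from the same edgeR test was 0.0824 without HFD library 2, 0.0715 without HTG library 2 and 0.0706 without HTG library 3. A row named Hadhb-ps, a pseudogene that can share reads with Hadhb, held 1518, 2905 and 2095 counts in the HFD group against 1523, 734 and 374 with HTG, where Hadhb itself held 5917, 12816 and 7923 against 7189, 4006 and 1735, so the split between both is uncertain.

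The ratio of the subunits within a library does not depend on the scaling between libraries. The log2 ratio of Hadhb to Hadha in FPKM was -0.90, -0.68 and -0.90 in the HFD group, against -0.70, -0.97 and -1.09 with HTG. The values of the groups interleaved, with HFD library 2 and HTG library 1 highest. The means were -0.82 ± 0.13 and -0.92 ± 0.20 (SD, n = 3 each), and the difference of -0.09 gave p = 0.5 in a two-sided exact permutation test, in which 3 against 3 libraries cannot go below 0.1. Across the 45 pairs of members, the difference in log2 CPM between Hadha and Hadhb varied with an SD of 0.16 over the 6 libraries, the fourth smallest. Acadvl with Acaa2 (0.11) and Acadl with Eci1 (0.12) varied least, and Hadhb with Eci1 (0.68) varied most.

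Echs1 (ENSMUSG00000025465, chr7:139685623-139696389, minus strand) encodes the matrix enoyl-CoA hydratase, which adds water to short and medium chains. It stood at 188, 166 and 194 CPM in the HFD libraries and at 159, 102 and 120.1 CPM in the HTG libraries. The groups did not overlap, and Echs1 was the 1 member that was not highest in HFD library 2, which was its lowest HFD library. The means were 183 ± 14.5 CPM and 127 ± 29.1 CPM (SD, n = 3 each). On the log2 scale the fitted change was -0.53 (standard error 0.21), and edgeR gave a p of 0.0384 unadjusted and 0.176 adjusted. Its unadjusted p was above 0.05 without HFD library 1, HFD library 3, HTG library 2 or HTG library 3. Echs1 overlaps Paox on the opposite strand over 678 bases, and Paox had a log2 fold change of -0.27.

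Hadh (ENSMUSG00000027984, chr3:131027068-131065750, minus strand) encodes the 3-hydroxyacyl-CoA dehydrogenase of the matrix, which acts on short and medium chains. Its levels were 241, 296 and 279 CPM in the HFD libraries and 208, 107 and 110.1 CPM in the HTG libraries. The HFD libraries were close together and above every HTG library, and HTG libraries 2 and 3 were far below HTG library 1. The means were 272 ± 27.9 CPM and 142 ± 57.4 CPM (SD, n = 3 each), a fitted ratio of 0.521. Its log2 fold change was -0.94 (standard error 0.29), and the p from edgeR's quasi-likelihood fit was 0.0107 unadjusted and 0.0996 adjusted. As for Hadha, the unadjusted p stayed under 0.05 in all 17 alternative settings.

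Acaa2 (ENSMUSG00000036880, chr18:74912268-74939279, plus strand) encodes the medium-chain 3-ketoacyl-CoA thiolase, which closes the round. It stood at 633, 905 and 687 CPM in the HFD libraries and at 677, 434 and 444 CPM in the HTG libraries. HTG library 1 lay between HFD libraries 1 and 3, and the other HTG libraries were below all HFD libraries. The means were 742 ± 144 CPM and 518 ± 138 CPM (SD, n = 3 each). The log2 fold change of -0.52 (standard error 0.26) had an edgeR p of 0.0813 unadjusted and 0.264 adjusted. DESeq2 and limma on FPKM put its unadjusted p under 0.05, as did leaving out HTG library 1 (-0.80), and the log2 value was -0.35 without HFD library 2. In FPKM the groups did not overlap, though HTG library 1 (417) and HFD library 1 (419) were nearly equal.

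Eci1 (ENSMUSG00000024132, chr17:24645615-24658322, plus strand) encodes an enoyl-CoA isomerase that moves the double bonds of unsaturated chains into place for the hydratase. Its levels were 74.1, 110.4 and 67.8 CPM in the HFD libraries and 99.8, 74.7 and 56.9 CPM in the HTG libraries. The groups were interleaved, with HTG library 2 level with HFD library 1. The means were 84.1 ± 23.0 CPM and 77.1 ± 21.6 CPM (SD, n = 3 each), and the log2 fold change of -0.13 (standard error 0.27, edgeR quasi-likelihood adjusted p = 0.808) had the smallest size of the 10. It was 0.12 without HFD library 2 and 0.06 without HTG library 3, so its sign depended on either of these libraries.

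**Figure D2:**
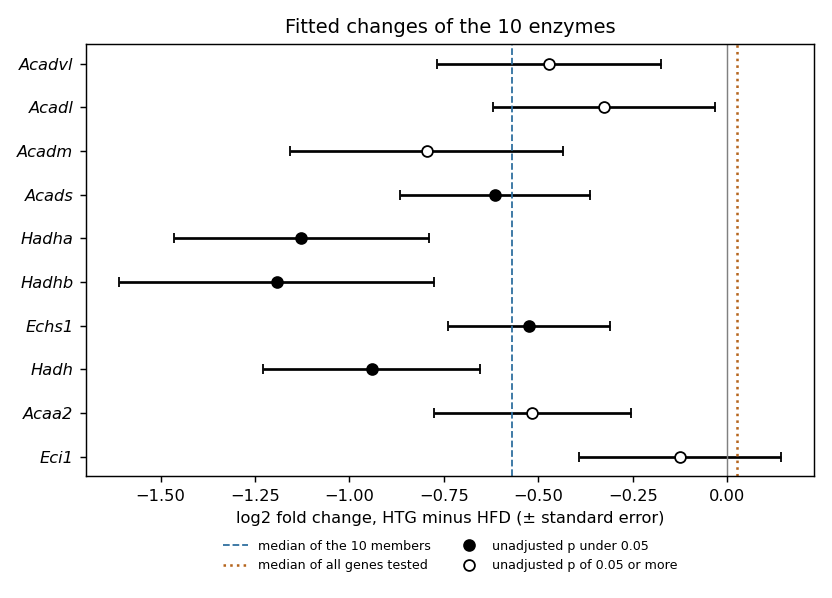
Fitted log2 fold change (HTG minus HFD, horizontal axis) with its standard error for each enzyme, filled where the unadjusted p from edgeR's quasi-likelihood test was under 0.05. All 10 points are left of 0, and the dashed line marks their median (-0.57) and the dotted line the median of all genes tested (0.03).

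The libraries of a group were not alike for these enzymes, and the same libraries stood out in most of them. HFD library 2 was the highest of the 6 in 9 members, which was so for 21.4% of all genes tested, and HFD library 3 in the other. HTG library 1 was the highest HTG library in 10 of 10 members, against 35.2% of all genes, and it lay inside the range of the HFD libraries in 6. HTG libraries 2 and 3 were both below every HFD library in 9 members, Eci1 being the exception, against 22.5% of all genes. The HFD libraries all lay above the HTG libraries in CPM for 4 members (Acads, Hadha, Echs1 and Hadh), against 15.5% of all genes. In FPKM this held for Hadhb and Acaa2 in addition, both by a narrow margin between HTG library 1 and HFD library 1. These were 13.05 against 13.2 for Hadhb and 417 against 419 for Acaa2. The share over all genes was not counted in FPKM. HTG library 1 also had the lowest share of mitochondrially encoded mRNA among the HTG libraries (9.12%) and HFD library 2 the lowest of all (4.82%), and the part of this in the members' values was not tested.

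Summed over the 10 enzymes, the level was 2284, 3437 and 2421 CPM in the HFD libraries and 2369, 1439 and 1420 CPM in the HTG libraries. HTG library 1 lay between HFD libraries 1 and 3. The means were 2714 ± 630.1 CPM and 1743 ± 542 CPM (SD, n = 3 each), a ratio of 0.642, and the 10 enzymes together took between 0.238% and 0.323% of the counts in the HFD group and between 0.131% and 0.235% in the HTG group. Acaa2 contributed most to these sums in every library.

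**Figure D3:**
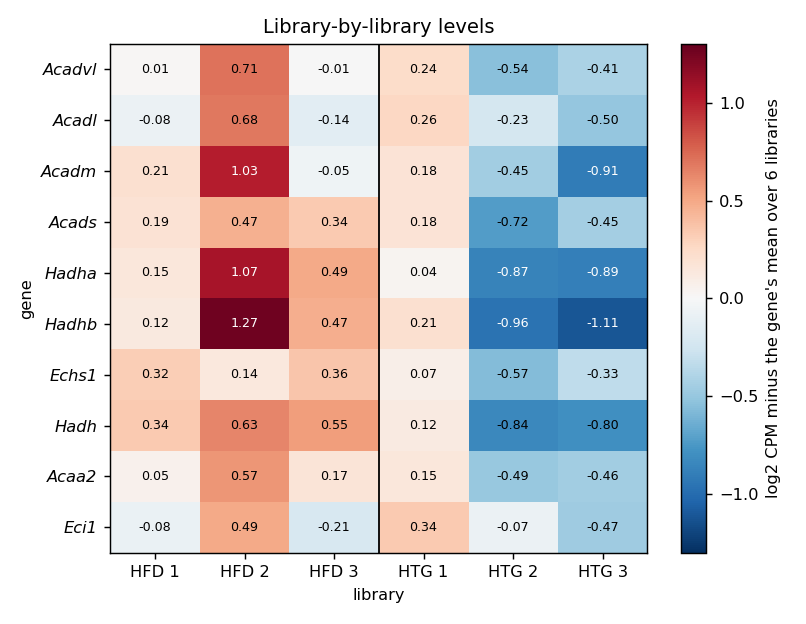
Each enzyme's log2 CPM in each library minus its mean over the 6 libraries, in log2 units (colour scale and printed values). HFD library 2 reaches 1.27 for Hadhb and 1.07 for Hadha, HTG library 3 falls to -1.11 for Hadhb, and HTG library 1 is above 0 for all 10 enzymes.

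By FPKM, a level per length, Acaa2 was highest in both groups, at 469 ± 62.7 in the HFD group and 320.4 ± 85.3 in the HTG group (SD, n = 3 each). In the HFD group it was followed by Acadvl (139), Acadl (79.7), Acadm (72.0), Acads (64.3), Hadh (52.7), Eci1 (37.8), Hadha (32.5), Echs1 (21.4) and Hadhb (18.7), all mean FPKM. Among neighbours in this order, the library ranges overlapped for Acadl and Acadm, Acadm and Acads, Eci1 and Hadha, and Echs1 and Hadhb. In the HTG group the order was the same except that Eci1 (34.2) stood above Hadh (26.6), and the ranges of all neighbours but Acaa2 and Acadvl overlapped. The length behind these FPKM values, read from counts and FPKM together, ran from 1.59 kb for Acaa2 to 9.18 kb for Hadha, and 8 of the 10 genes list a transcript with a retained intron, so the order between genes depends on the length the table used.

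The genes most like the 10 enzymes across the 6 libraries were sought among 8004 genes with a mean of at least 10 CPM, by Pearson's r with the mean of the members' standardised log2 CPM. They were Gfus (r = 0.999), a GDP-L-fucose synthase gene, Chd4 (0.994), which encodes a chromatin remodeller, Nfatc3 (0.993), a transcription factor gene, Hsd17b4 (0.993) and Dohh (0.992), a deoxyhypusine hydroxylase gene. A correlation above 0.95 was found for 200 of the 8004 genes. The 6 points share the libraries' depth and composition, and these values are a description. Hsd17b4 encodes the peroxisomal bifunctional enzyme of beta-oxidation and stood at 283, 491 and 316 CPM in the HFD libraries and at 303, 183 and 161 CPM in the HTG libraries.

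Other genes of fatty acid oxidation and its regulators were read from lists chosen by function, and the lowest edgeR adjusted p among them was 0.0616 (Acad11). Of the 6 carnitine shuttle genes, which bring long chains into the mitochondrion, 1 was lower at an unadjusted edgeR p under 0.05, near the 12.4% of all genes, with a list median log2 fold change of -0.89. It was Cpt1a, the rate-limiting carnitine palmitoyltransferase of the outer membrane, at 347, 612 and 366 CPM in the HFD libraries and at 237, 192 and 151 CPM in the HTG libraries. All HFD libraries were above all HTG libraries, and the log2 fold change was -1.19 (standard error 0.29, edgeR quasi-likelihood adjusted p = 0.0654).

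The 15 auxiliary and electron transfer genes had a median log2 fold change of -0.33. At an unadjusted edgeR p under 0.05, 5 were lower, against 12.4% of all genes, and 2 were higher, near the 12.3% of all genes. Acad11, an acyl-CoA dehydrogenase of unusual chains, had 284 ± 98.3 CPM in the HFD group and 119 ± 27.3 CPM in the HTG group (SD, n = 3 each), and a log2 fold change of -1.26. The propionyl-CoA carboxylase subunits Pcca (-0.82) and Pccb (-1.01), which handle the end of odd chains, and Etfdh (-1.20), which passes electrons from ETF to the respiratory chain, also had lower fitted log2 values. Etfb, the beta subunit of the electron acceptor ETF itself, was higher, with 269 ± 29.1 CPM in the HFD group and 386 ± 33.8 CPM in the HTG group (SD, n = 3 each), a log2 fold change of 0.52. Mcee, the methylmalonyl-CoA epimerase downstream of Pcca and Pccb, had a log2 fold change of 0.62. The groups of Etfb did not overlap, all HTG libraries being above all HFD libraries.

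The 4 ketone body synthesis genes had a median log2 fold change of -0.40. The 12 peroxisomal genes had a median of -0.44. At an unadjusted edgeR p under 0.05, 4 of them were lower, against 12.4% of all genes, and 0 higher, against 12.3%. Among the 4 lower genes were Abcd3 (-1.46), a fatty acyl transporter of the peroxisomal membrane, Ehhadh (-1.88), a bifunctional enzyme, and Hsd17b4 (-0.75), all as log2 fold changes. Ehhadh stood at 92.7, 889 and 186 CPM in the HFD libraries and at 155, 107 and 56.0 CPM in the HTG libraries, HFD library 2 lying far above all the others.

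Of the 11 regulators, 2 were lower and 1 was higher at an unadjusted edgeR p under 0.05, near the 12.4% and 12.3% of all genes, with a median log2 fold change of -0.27. Ppara stood at 20.4, 35.3 and 50.6 CPM in the HFD libraries and at 16.1, 25.9 and 19.1 CPM in the HTG libraries. The groups overlapped, since HTG library 2 was above HFD library 1, and the log2 fold change was -0.80 (standard error 0.33, edgeR quasi-likelihood adjusted p = 0.178). HTG library 1, the highest HTG library for all 10 enzymes, was the lowest for Ppara. Rxra, the partner receptor of PPARα, had 397 ± 28.3 CPM in the HFD group and 239 ± 32.6 CPM in the HTG group (SD, n = 3 each). Sirt1, an NAD-dependent deacetylase gene, had 12.4 ± 2.40 CPM and 17.0 ± 1.18 CPM (SD, n = 3 each).

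The citric acid cycle takes up the acetyl-CoA, and its 17 genes had a median log2 fold change of -0.68. At an unadjusted edgeR p under 0.05, 10 of the 17 were lower, against 12.4% of all genes, and 0 higher, against 12.3%. Those with the smallest p were the succinate dehydrogenase subunits Sdhd (-1.50) and Sdha (-1.38), Sucla2 (-1.13), a subunit of succinyl-CoA synthetase, and Dld (-0.84), the lipoamide dehydrogenase. All 13 mitochondrially encoded mRNAs were higher at an unadjusted edgeR p under 0.05, against 12.3% of all genes. Their median log2 fold change was 1.21, with adjusted edgeR p-values from 0.0538 to 0.0873. With the mitochondrial rows left out before scaling, 5 members were lower at an unadjusted edgeR p under 0.05, and 1, Hadha, had an adjusted p under 0.1. The share over all genes was not counted in that setting, and the part of the mitochondrial mRNAs in the members' values was not tested.

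**Figure D4:**
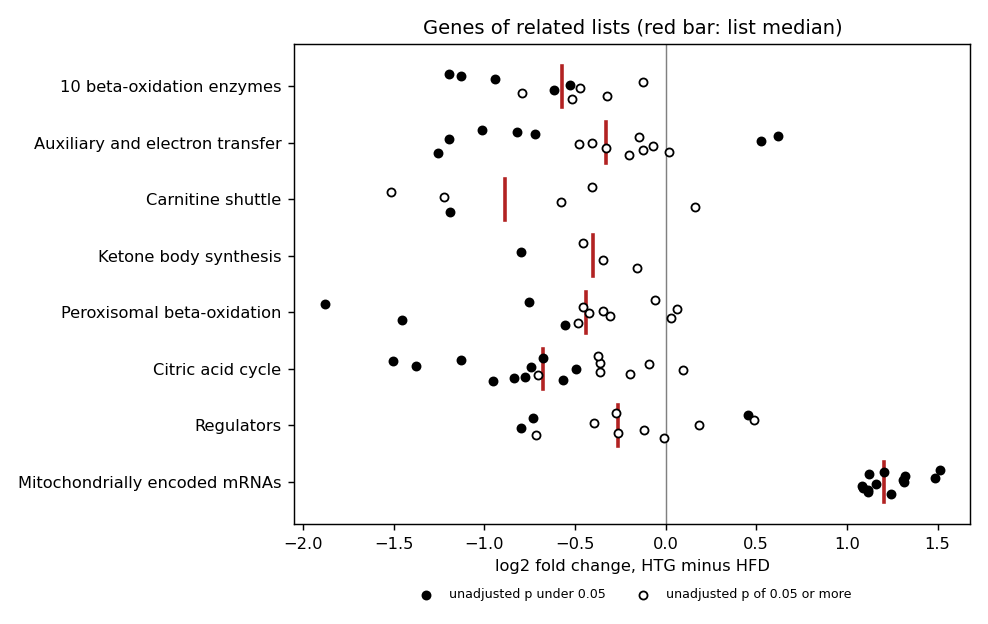
Fitted log2 fold change (HTG minus HFD, horizontal axis) of every tested gene of the 10 enzymes and of 7 related lists, filled where the unadjusted p was under 0.05 in edgeR's quasi-likelihood test, with a red bar at each list's median. The medians of the nuclear lists lie between -0.89 (carnitine shuttle) and -0.27 (regulators), and that of the mitochondrially encoded mRNAs at 1.21.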

How the data were processed

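The 6 liver libraries, 3 HFD and 3 HTG, were grouped by title and treatment label. Poly(A) RNA was sequenced as paired-end libraries with a dUTP-marked strand, while the labels and the study's methods differ on the species. The submitters' processing notes name HISAT2, StringTie, SAMtools and the build mRatBN7.2, without versions, and the table itself names no build. For each gene and library the authors deposited an estimated count, already a whole number and not normalised, and an FPKM value, which is scaled by length and by library.

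Counts were compared with edgeR 4.0.16 (TMM scaling, filterByExpr, glmQLFit with the group alone, glmQLFTest) in R 4.3.3, with p-values adjusted by the Benjamini-Hochberg method over all genes tested, and standard errors derived from the fitted change and its F statistic. The steps were tested on simulated data. Alternatives were DESeq2 1.42.0, limma 3.58.1 on log2(FPKM + 0.1) or log2(FPKM + 1) where the mean FPKM reached 1, other filters and scalings, counts divided by 4, the mitochondrial rows left out, a replicate block and each library left out in turn.

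The 10 members and all lists were chosen with earlier results of these data known. From each list, up to 4 genes per direction with the smallest unadjusted p under 0.05 were named, with Cpt1a and Ppara in any case, and some genes this rule takes are not reported here. Genes of like pattern were the 5 with the highest r over log2(CPM + 0.5). Marker genes were those of hepatocytes, Kupffer cells, other leukocytes, endothelium, stellate cells, cholangiocytes, red cells and adipocytes. Start regions came from RefSeq's rat table (GRCr8).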

Additional observations from a re-analysis of the deposited data

How the results depend on the processing

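Over 17 alternative settings the 10 fitted changes kept their direction and their side of an unadjusted p of 0.05 in 144 of 170 cases, lost it in 13, gained it in 11 and turned sign in 2, both of Eci1 (between -0.39 and 0.12 when 1 library was left out, and above 0 without HFD library 2 or, at 0.06, HTG library 3). The median log2 fold change ranged from -0.88 to -0.42 when 1 library was left out. The number lower at an unadjusted p under 0.05 was between 2 and 8 when 1 library was left out, against 5 with all, and between 5 and 7 otherwise. The number with an adjusted p under 0.05 was 3 with DESeq2 and between 0 and 3 when 1 library was left out, the 3 being reached without HTG library 1. The number with an adjusted p under 0.1, against 2 with all, was 5 with DESeq2, 5 with limma on log2(FPKM + 1), 1 with the mitochondrial rows left out, 0 with no filter and between 0 and 6 when 1 library was left out. With a replicate block it was 0, and 5 members were lower at an unadjusted p under 0.05, with Acadm in and Acads out. Shares over all genes were counted only for the main fit, for DESeq2 at an adjusted p under 0.05 and without HTG library 1. The other numbers have no background beside them, and a setting that calls more genes in the whole table can raise them too. Deviations of same-numbered libraries correlated with r = -0.08, -0.07 and 0.10 (across genes), and those of differently numbered libraries with r between -0.12 and 0.18. With 3 libraries per group, these values cannot show whether same-numbered samples shared a batch. Hadha and Hadh stayed under an unadjusted p of 0.05 in all 17 settings. The cause of these shifts was not tested. The differences of Acadvl, Acadl and Eci1 between group means in CPM were smaller than the SD of the HFD libraries.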
